A study of Homo sapiens with 12 samples.

Results

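The inhibitor of apoptosis genes BIRC2, BIRC3, BIRC6 and XIAP, together with the antagonist genes DIABLO and HTRA2, were examined across all libraries of the series. These 6 genes were chosen by name among the 60671 genes listed, and 5 of them, all except BIRC3, reached the level needed for testing, a mean of at least 1 FPKM over the 12 libraries, which 11591 genes reached. FPKM counts sequenced fragments per length of a gene and per total fragments of a library. The libraries, labelled as Jurkat, a line grown from a human T cell leukemia, formed 4 groups of 3, named PTPN21+VCR, NC+VCR, PTPN21+DMSO and NC+DMSO. PTPN21 cells carried a lentiviral FLAG-tagged PTPN21, a protein tyrosine phosphatase, driven by the SFFV promoter. The labels call the NC cells wild type, while the methods describe them as carrying the GFP vector. Each was treated for 48 h with vincristine (VCR), a drug that blocks microtubule assembly, or with its solvent DMSO. For the sequenced cells the VCR concentration is not given in the sources used here. The methods speak of replicates in each group and of repeated independent experiments, without saying whether the 3 libraries of a group came from separate cultures, so the p-values measure only the spread between these libraries, which may be technical.

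Caspases are proteases that dismantle a dying cell, and the inhibitor of apoptosis proteins restrain them. XIAP binds and blocks caspases directly. BIRC2 and BIRC3 encode cIAP1 and cIAP2, neighbouring ubiquitin ligases that work in the tumor necrosis factor (TNF) receptor complex and in NF-kB signaling, and BIRC6 encodes a very large ubiquitin-conjugating enzyme. DIABLO (Smac) and HTRA2 (Omi, a serine protease) sit in the space between the mitochondrial membranes, and when that space opens they reach the cytosol and displace caspases from the inhibitors.

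Before the results, the label of the cells was checked against a list of 10 T lineage genes, and most of the list went against it. CD247 and LCK, which encode core parts of T cell receptor signaling, and CD28 were listed at 0 in all 12 libraries. CD2 reached at most 0.0287 FPKM and CD3E at most 0.146 FPKM. CD3D and PTPRC were the 2 genes of the list at 1 FPKM or more in every library. They were at 61.8 to 140 FPKM and 8.07 to 33.1 FPKM, so the summed level of the list was 91.2 to 167 FPKM. TRBC1, a T cell receptor gene, was at 1 FPKM or more in 8 libraries, at most 4.15 FPKM, and at 0 in 1. CD3G reached at most 1.03 FPKM and CD7 at most 0.605 FPKM. GAPDH, a gene used by most cells, was never under 580 FPKM. Of the 5 epithelial genes listed, EPCAM and the keratin genes KRT8, KRT18 and KRT19 were at 58.3 FPKM or more in every library, with KRT8 at 236 to 1186 FPKM, while CDH1, which encodes E-cadherin, had a median of 0.0876 FPKM and was listed at 0 in 3 libraries. GATA1, a transcription factor of red cell precursors that was picked after its values were seen, ranged from 13.5 to 106 FPKM, and the gamma globin gene HBG2, picked in the same way, from 560 to 2985 FPKM. The B lineage list of 7 genes summed to at most 1.84 FPKM and the myeloid list of 5 to between 10.1 and 20.4 FPKM. The libraries are therefore named below only by their labels. PTPN21 itself followed its label, at 0.0212 to 0.569 FPKM in the NC libraries and 4.34 to 10.5 FPKM in the PTPN21 libraries.

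Other differences between the libraries moved with the groups. Relative depth, taken from the size of the lowest FPKM steps and set to 1 in NC+DMSO replicate 1, was 0.886 to 1.10 in the NC libraries and 1.26 to 1.47 in the PTPN21 libraries, so depth and construct cannot be told apart. The depth in fragments is unknown. The 5 epithelial genes summed to 605 to 853 FPKM in the DMSO libraries and to 1678 to 2218 FPKM in the VCR libraries. EPCAM and the 3 keratin genes were each higher in all VCR libraries than in all DMSO libraries, and CDH1 went the other way, at 0.101 to 1.83 FPKM with DMSO and at most 0.0737 FPKM with VCR. The 7 red cell genes listed after their values were seen summed to 1273 to 2094 FPKM in NC+DMSO, 3039 to 4209 FPKM in PTPN21+DMSO, 877 to 902 FPKM in NC+VCR and 1072 to 1239 FPKM in PTPN21+VCR.

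The 6 genes lie on 4 chromosomes, with coordinates given here in GRCh38 from GENCODE release 29. BIRC3 (ENSG00000023445) and BIRC2 (ENSG00000110330) lie next to each other on the plus strand of chromosome 11, at chr11:102317450-102339403 and chr11:102347211-102378670. BIRC6 (ENSG00000115760) and HTRA2 (ENSG00000115317) are both on the plus strand of chromosome 2, at chr2:32357028-32618899 and chr2:74529377-74533348. DIABLO (ENSG00000184047) is on the minus strand at chr12:122207663-122226568, and XIAP (ENSG00000101966) on the plus strand at chrX:123859724-123913979. In summed exon length the inhibitor genes spanned 4532 bases for BIRC2, 7518 for BIRC3, 9025 for XIAP and 17858 for BIRC6. The antagonist genes spanned 6774 bases for DIABLO and 3001 for HTRA2.

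BIRC3 is a known target gene of NF-kB, so the sequence before its start is shown with that of its neighbour BIRC2, which was higher than BIRC3 in every library. Both are from the RefSeq promoter table for GRCh38.p14, plus strand, from 250 to 51 bases before the start, BIRC3 at chr11:102317234-102317433 and BIRC2 at chr11:102346964-102347163. Capitals mark a match to the NF-kB motif.
BIRC3: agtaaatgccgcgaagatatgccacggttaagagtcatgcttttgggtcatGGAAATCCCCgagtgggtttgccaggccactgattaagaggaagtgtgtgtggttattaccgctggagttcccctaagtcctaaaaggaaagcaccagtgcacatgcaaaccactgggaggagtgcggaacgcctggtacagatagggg
BIRC2: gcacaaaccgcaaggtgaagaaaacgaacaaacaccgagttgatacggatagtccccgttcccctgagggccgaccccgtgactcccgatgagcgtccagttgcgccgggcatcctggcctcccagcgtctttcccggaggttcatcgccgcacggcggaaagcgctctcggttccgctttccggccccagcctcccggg

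The searched letters were GGG, 2 free bases and TTTCC, or GGG, 3 free bases and TTCC, for NF-kB, TGANTCA for AP-1 and TGATGNAA for the C/EBP-ATF composite, on both strands of the whole windows of 250 bases before to 50 after each RefSeq start. The BIRC3 match begins 199 bases before the start and lies on the minus strand. It fits both NF-kB patterns, which are overlapping descriptions of the same site. The first NF-kB pattern was held by 1.91% of all 35116 windows and the second by 6.52%. No window of BIRC2, BIRC6, XIAP, DIABLO or HTRA2 held any of the motifs, which were present in 7.71% of all windows for TGANTCA and 3.62% for TGATGNAA. A match is only a description of these letters.

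In every group the mean FPKM fell in the order DIABLO, HTRA2, BIRC2, BIRC6, XIAP, BIRC3, so both antagonists were above all the inhibitors. DIABLO averaged 101 FPKM over the 12 libraries, and 6.77% of the genes tested were higher. XIAP averaged 2.71 FPKM, and 74.4% of the genes tested were higher. DIABLO was above HTRA2 without overlap in every group, by 4.11 to 6.14 times in the means. HTRA2 and BIRC2 overlapped in both VCR groups and not in the DMSO groups. BIRC2 and BIRC6 overlapped in NC+VCR alone, while BIRC6 and XIAP overlapped in all 4 groups, so those neighbours in the order did not differ beyond their spread. XIAP and BIRC3 overlapped in PTPN21+DMSO alone.

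**Figure D1:**
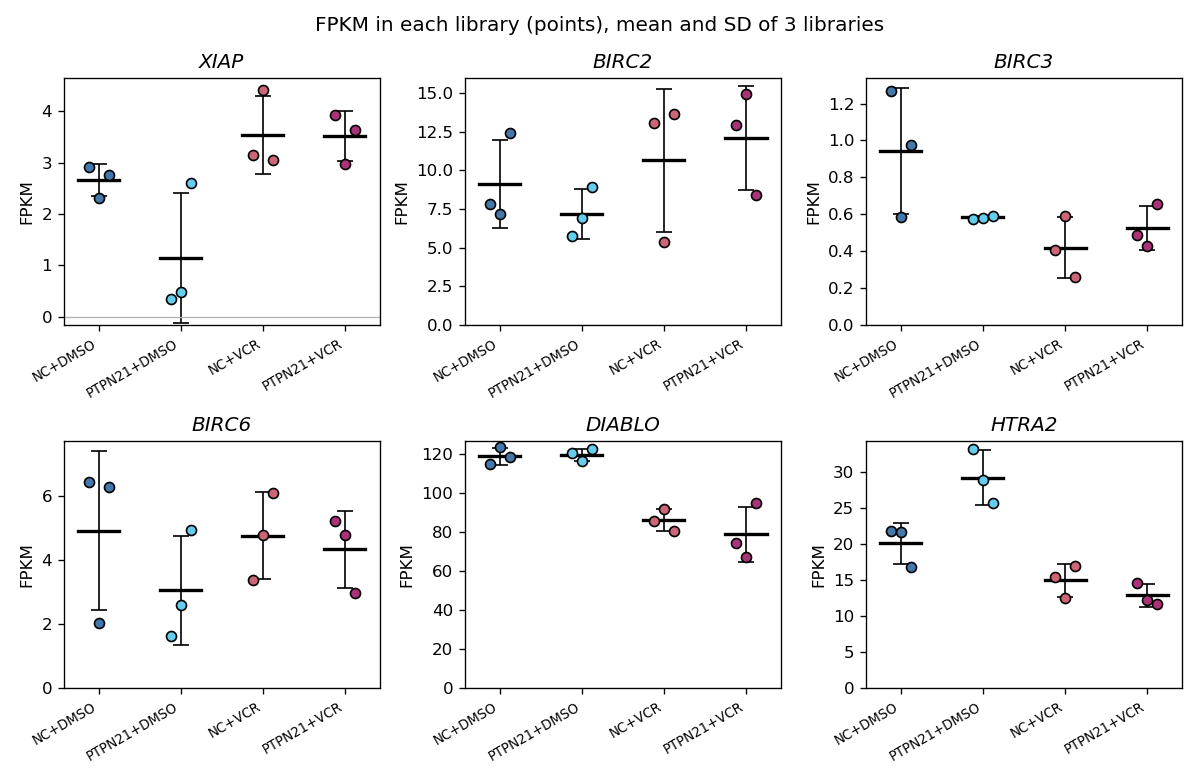
FPKM (y axis, one scale per gene) of the 6 genes in each library (points) of the 4 groups (x axis), with the mean (thick line) and SD (thin bars) of 3 libraries. DIABLO sits at 115 to 124 FPKM in the DMSO libraries and at 67.6 to 94.8 FPKM in the VCR libraries, and XIAP falls below 0.5 FPKM in 2 PTPN21+DMSO libraries.

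With the spread pooled over the 4 groups, the antagonists were also the steadier genes between replicates. DIABLO had a residual SD of 0.137 on the log2(FPKM + 1) scale, and 93.2% of the genes tested had a larger one. HTRA2 had a residual SD of 0.190, exceeded by 81.5% of the genes tested. The inhibitors varied more, with residual SDs of 0.422 for XIAP, 0.459 for BIRC2 and 0.531 for BIRC6, exceeded by 24.9%, 20.1% and 13.3% of the genes tested. All these shares are of all genes tested, not of genes at a similar level. For XIAP the pooled spread includes PTPN21+DMSO, where the SD was 111% of the mean FPKM. In NC+DMSO and PTPN21+VCR that percentage for XIAP lay between those of the 2 antagonists. In NC+VCR it was 21.4%, above both. For BIRC2 and BIRC6 it was above both antagonists in every group. The pooled spread set how small a change could be detected in each gene. Changes below are differences of mean log2(FPKM + 1). They were tested by limma, with all 4 groups fitted together and Benjamini-Hochberg adjustment over all 11591 genes, and a gene passed at an adjusted p under 0.05. On this scale the changes of weakly expressed genes are understated.

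The first comparison asked how VCR changed these genes in NC cells. Of the 5 genes tested, 1 passed, DIABLO, which was lower, where 36.2% of all genes tested passed and 28.3% passed as lower. The 3 inhibitors that were tested had log2 fold changes of 0.04 to 0.30 and did not pass. The median log2 fold change of all genes tested in this comparison was -0.36. In bulk libraries, fewer cells of a type and less RNA per cell cannot be told apart. The summed level of the epithelial genes was higher and that of the red cell genes lower in NC+VCR than in NC+DMSO, with CDH1 against the direction of its list, and their part in the results was not tested.

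DIABLO was at 115, 124 and 118 FPKM in NC+DMSO and at 85.5, 92.2 and 80.9 FPKM in NC+VCR. Every VCR library was below every DMSO library, as in 33.9% of the genes tested. The log2 fold change was -0.46 (SE 0.124, limma adjusted p = 0.0132), equal to 1.38-fold lower, and its difference from the median of all genes was -0.10. With median ratio scaling, which sets that median close to 0, the DIABLO change was -0.07 (adjusted p = 0.754), and it no longer passed with quantile normalization (-0.36, adjusted p = 0.0555) or after GC content and length trends were removed (-0.13, adjusted p = 0.556).

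HTRA2 was at 21.8, 21.7 and 16.8 FPKM in NC+DMSO and at 15.4, 12.5 and 16.9 FPKM in NC+VCR. The groups overlapped by a single pair of libraries, NC+DMSO replicate 3 and NC+VCR replicate 3. The log2 fold change was -0.41 (SE 0.170, limma adjusted p = 0.0804), close to the median of all genes. Without NC+DMSO replicate 3 it was -0.52 and passed (adjusted p = 0.0476), and it was 0.06 after GC content and length trends were removed, where the sign turned.

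XIAP was at 2.91, 2.30 and 2.76 FPKM in NC+DMSO and at 3.15, 4.41 and 3.05 FPKM in NC+VCR. The VCR libraries were all above the DMSO libraries, a pattern held by 10.2% of the genes tested. The log2 fold change of 0.30 did not pass (95% interval -0.41 to 1.01, limma adjusted p = 0.489). BIRC2 had a log2 fold change of 0.14 (95% interval -0.58 to 0.86) and BIRC6 of 0.04 (95% interval -0.80 to 0.88), and both groups overlapped for both genes.

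In PTPN21 cells the same treatment gave 3 passing genes of the 5 tested, HTRA2 and DIABLO lower and XIAP higher, where 28.5% of all genes tested passed, 19.3% as lower and 9.22% as higher. All 3 had groups that did not overlap, a pattern held as lower by 33.3% and as higher by 17% of the genes tested. The median log2 fold change of all genes tested was -0.17. In this comparison the summed levels of the epithelial and the red cell genes given above moved as well, and their part in the results was not tested.

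HTRA2 changed most among the genes that fell. It was at 33.1, 28.8 and 25.6 FPKM in PTPN21+DMSO and at 14.6, 12.3 and 11.7 FPKM in PTPN21+VCR. The lowest DMSO library was well above the highest VCR library. HTRA2 had a log2 fold change of -1.12 (SE 0.170, limma adjusted p = 0.000555), equal to 2.18-fold lower. It passed in all 24 alternative settings, at -1.21 to -0.72, but the weakest of these calls was only just under the threshold.

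DIABLO was at 120, 117 and 123 FPKM in PTPN21+DMSO and at 74.6, 67.6 and 94.8 FPKM in PTPN21+VCR. The VCR libraries differed among themselves more than the DMSO libraries did, and none reached the DMSO level. This gave a log2 fold change of -0.61 (SE 0.124, limma adjusted p = 0.00357), equal to 1.53-fold lower. It passed in 22 of 24 settings; it was -0.42 with median ratio scaling (adjusted p = 0.0600) and -0.64 without PTPN21+DMSO replicates 1 and 2 (adjusted p = 0.0745).

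XIAP was at 0.338, 0.477 and 2.60 FPKM in PTPN21+DMSO and at 3.93, 2.97 and 3.64 FPKM in PTPN21+VCR. Replicates 1 and 2 of PTPN21+DMSO stood apart from the other 10 libraries of the series, which ranged from 2.30 to 4.41 FPKM, and replicate 3 lay among them. XIAP rose by a log2 fold change of 1.23 (SE 0.326, limma adjusted p = 0.0151), equal to 2.34-fold higher in FPKM + 1. The mean FPKM itself was 3.09-fold higher, at 1.14 and 3.51 FPKM, and with a pseudocount of 0.1 the log2 fold change was 2.03 (adjusted p = 0.0170). Without replicates 1 and 2 of PTPN21+DMSO it was 0.32 (adjusted p = 0.572), without replicate 1 alone 0.96 (adjusted p = 0.0672), without replicate 2 alone 1.03 (adjusted p = 0.0628) and without PTPN21+VCR replicate 1 1.16 (adjusted p = 0.0517).

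BIRC2 was at 5.73, 6.91 and 8.92 FPKM in PTPN21+DMSO and at 13.0, 14.9 and 8.41 FPKM in PTPN21+VCR. Only PTPN21+VCR replicate 3 lay within the DMSO range. The log2 fold change of 0.66 did not pass (95% interval -0.06 to 1.38, limma adjusted p = 0.158), nor did that of BIRC6 at 0.45 (95% interval -0.39 to 1.29, adjusted p = 0.417). BIRC2 passed with quantile normalization alone (0.85, adjusted p = 0.0496).

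**Figure D2:**
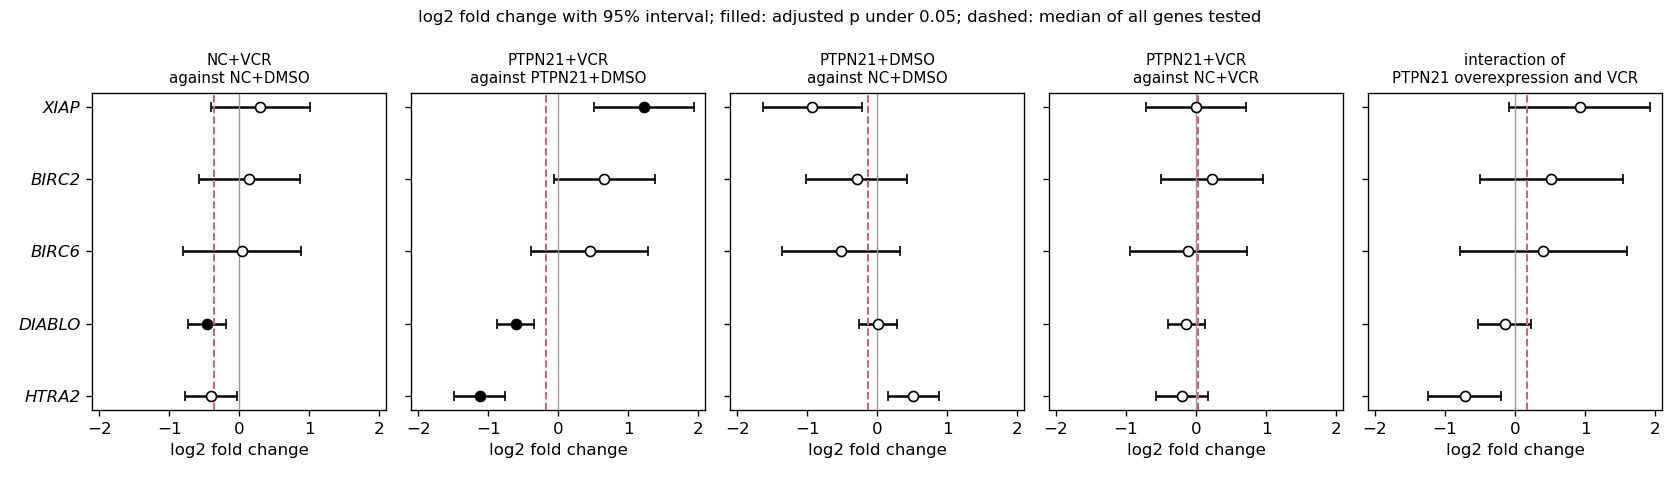
log2 fold change (x axis) of the 5 tested genes in each of the 5 comparisons (panels), with 95% intervals, filled points for an adjusted p under 0.05 in limma and a dashed line at the median of all genes tested. HTRA2 at -1.12, DIABLO at -0.61 and XIAP at 1.23 are filled for PTPN21+VCR against PTPN21+DMSO, DIABLO at -0.46 for NC+VCR against NC+DMSO, and no point is filled in the other 3 panels.

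The effect of PTPN21 overexpression without VCR was read from the DMSO groups. No gene of the 5 passed (0 in limma, 2 at an unadjusted p under 0.05), where 6.34% of all genes tested passed. An unadjusted limma p under 0.05 was held by 2968 of the 11591 genes tested. HTRA2 was at 25.6 to 33.1 FPKM in PTPN21+DMSO, above the 16.8 to 21.8 FPKM of NC+DMSO without overlap, as in 11.5% of the genes tested. Its log2 fold change was 0.52 (95% interval 0.15 to 0.89, limma adjusted p = 0.0855), and it passed with median ratio scaling alone (0.69, adjusted p = 0.0492). The red cell genes summed higher in PTPN21+DMSO than in NC+DMSO as well, and their part in the HTRA2 difference was not tested.

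XIAP had a log2 fold change of -0.93 in the same comparison (95% interval -1.63 to -0.22, limma adjusted p = 0.105), again through replicates 1 and 2. It passed when PTPN21+DMSO replicate 3 was left out (-1.38, adjusted p = 0.0276) and was -0.02 when replicates 1 and 2 were left out. BIRC6 at -0.52 and BIRC2 at -0.29 were also lower in the mean, with overlapping groups. DIABLO differed by 0.01 (95% interval -0.26 to 0.28), at 119 ± 4.48 FPKM (SD, n = 3) in NC+DMSO and 120 ± 3.09 FPKM (SD, n = 3) in PTPN21+DMSO.

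Between the VCR groups, the comparison in which the study looked for effects of PTPN21 on apoptosis genes, no difference in these genes was detected. In limma 0 of 5 passed and 0 had an unadjusted p under 0.05. Of the 11591 genes tested, 1.82% passed and 1980 had an unadjusted p under 0.05. All 5 had overlapping groups, while the groups did not overlap for 22.5% of the genes tested. XIAP averaged 3.54 ± 0.757 FPKM in NC+VCR and 3.51 ± 0.492 FPKM in PTPN21+VCR (SD, n = 3), a log2 fold change of 0.00 with a 95% interval of -0.71 to 0.71. DIABLO differed by -0.14 (95% interval -0.41 to 0.13), HTRA2 by -0.20 (-0.57 to 0.17), BIRC6 by -0.11 (-0.95 to 0.73) and BIRC2 by 0.23 (-0.49 to 0.95). Those intervals use the spread pooled over the 4 groups, which for XIAP includes the uneven PTPN21+DMSO libraries. Changes of the size of those intervals were not detectable with this spread and 3 libraries per group.

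The interaction tested whether the VCR change differed between PTPN21 and NC cells. None of the 5 genes passed (0 in limma, 1 at an unadjusted p under 0.05), where 0.129% of all genes tested passed. An unadjusted limma p under 0.05 was held by 1624 of the 11591 genes tested. HTRA2 had the lowest unadjusted p, with an interaction of -0.72 on the log2 scale (SE 0.240, adjusted p = 0.235), and XIAP followed with 0.92 (SE 0.461, adjusted p = 0.391). So the passing of HTRA2 and XIAP in PTPN21 cells and not in NC cells was not shown to be a difference between the cells.

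The balance of antagonist to inhibitor was described as the ratio of DIABLO to XIAP FPKM within each library, which does not depend on the scaling between libraries. It was 39.4, 53.7 and 42.8 in NC+DMSO, 357, 244 and 47.2 in PTPN21+DMSO, 27.1, 20.9 and 26.5 in NC+VCR and 19.0, 22.7 and 26.1 in PTPN21+VCR. All 6 VCR libraries were below all 6 DMSO libraries. The values of the single genes fixed this separation, so it is not a further result. DIABLO was at most 94.8 FPKM with VCR and at least 115 FPKM with DMSO. XIAP was at least 2.97 FPKM with VCR and at most 2.91 FPKM with DMSO. How often the ratios of other gene pairs separate in this way was not examined. For single genes, the groups did not overlap in 44.1% of the genes tested for VCR in NC cells and 50.4% in PTPN21 cells. Those shares count both directions and 3 libraries against 3, so they are not a background for 6 against 6. The ratio of HTRA2 to DIABLO was 0.209 to 0.275 in PTPN21+DMSO and 0.123 to 0.209 in the other groups, overlapping with NC+VCR alone.

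**Figure D3:**
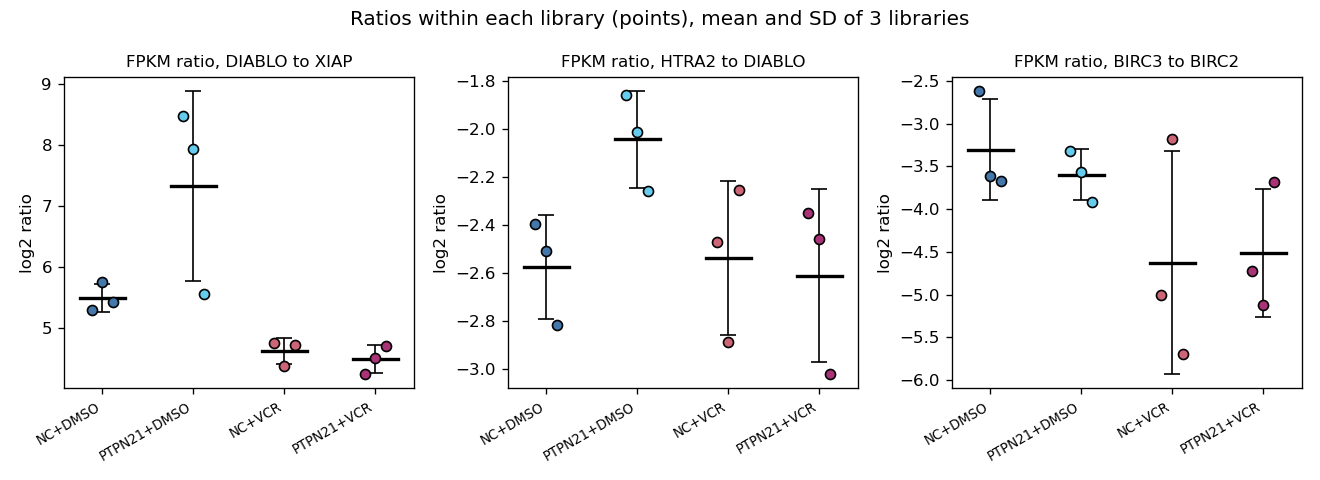
log2 ratio of FPKM (y axis, not from 0) within each library (points) for DIABLO to XIAP, HTRA2 to DIABLO and BIRC3 to BIRC2, with the mean and SD of 3 libraries in each group (x axis). The DIABLO to XIAP ratio is between 19.0 and 27.1 on the linear scale in the VCR libraries and between 39.4 and 357 in the DMSO libraries.

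BIRC3 stayed under the level for testing, with a mean of 0.618 FPKM over the 12 libraries. It was at 1.27, 0.587 and 0.976 FPKM in NC+DMSO, 0.574, 0.583 and 0.593 FPKM in PTPN21+DMSO, 0.407, 0.592 and 0.262 FPKM in NC+VCR and 0.490, 0.428 and 0.657 FPKM in PTPN21+VCR. NC+DMSO replicates 1 and 3 were above the other 10 libraries, and each pair of groups overlapped. BIRC3 was 0.0193 to 0.162 times BIRC2 within a library. Without the read counts, no limit of detection can be given for these low values.

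The reads of some of these genes can be shared with other genes. HTRA2 shares 483 exon bases with AUP1, which encodes a lipid droplet and endoplasmic reticulum protein, and 625 with LOXL3, a lysyl oxidase gene, both on the opposite strand. The strand of the libraries is not given in the sources used here, so these reads cannot be told apart. AUP1 was more abundant than HTRA2, at 69.4 to 84.5 FPKM in NC+DMSO, 103 to 112 FPKM in PTPN21+DMSO, 53.0 to 75.5 FPKM in NC+VCR and 58.9 to 69.0 FPKM in PTPN21+VCR. LOXL3 reached at most 0.784 FPKM.

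AUP1 and HTRA2 were high in the same group, PTPN21+DMSO. AUP1 had a log2 fold change of -0.74 for VCR in PTPN21 cells (SE 0.143, limma adjusted p = 0.00263) and of -0.18 in NC cells (adjusted p = 0.350). In PTPN21+DMSO against NC+DMSO it was 0.51 (adjusted p = 0.0548). After GC content and length trends were removed, the PTPN21 change no longer passed (-0.30, limma adjusted p = 0.0768) and the NC change turned to 0.30, as it did to 0.21 with median ratio scaling. The difference between the DMSO groups passed with trends removed (adjusted p = 0.0261), with median ratio scaling (adjusted p = 0.0321) and at a mean of at least 5 FPKM (adjusted p = 0.0363), as well as without NC+DMSO replicate 2 (adjusted p = 0.0325) or NC+VCR replicate 2 (adjusted p = 0.0319), and the PTPN21 change was -0.69 (adjusted p = 0.0876) without PTPN21+DMSO replicates 1 and 2. The part of AUP1 reads in the HTRA2 values was not tested.

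**Figure D4:**
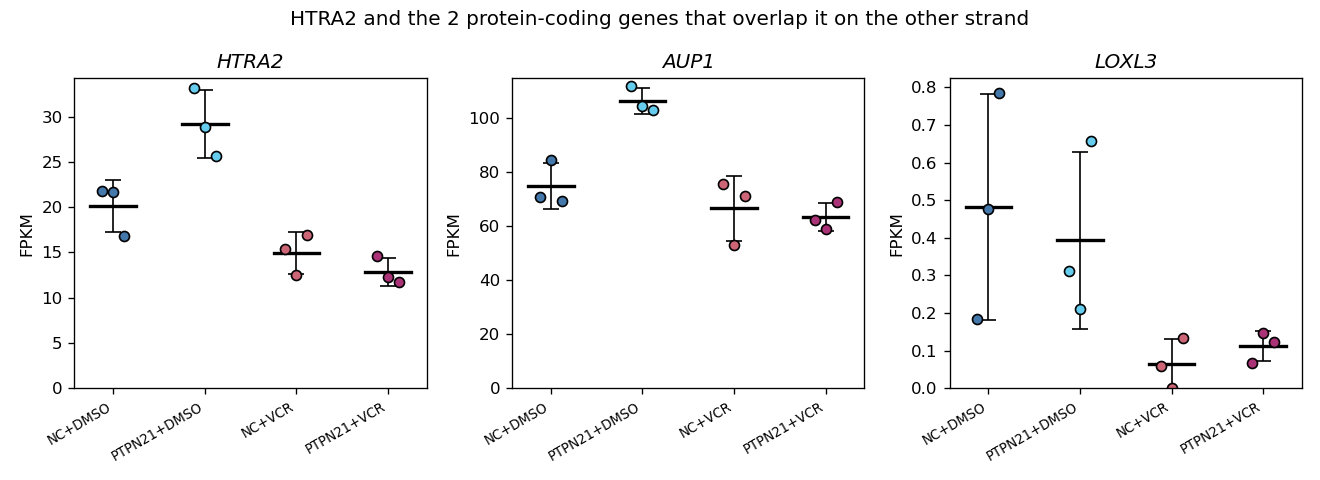
FPKM (y axis from 0) of HTRA2, AUP1 and LOXL3 in each library (points) of the 4 groups (x axis), with the mean and SD of 3 libraries. PTPN21+DMSO is the highest group for HTRA2, at 25.6 to 33.1 FPKM, and for AUP1, at 103 to 112 FPKM.

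DIABLO shares 970 exon bases with B3GNT4 on the opposite strand, which reached at most 0.743 FPKM. It also overlaps a second gene entry with the symbol DIABLO (ENSG00000284934), at most 0.372 FPKM, whose reads the counting could have split. The XIAP pseudogenes XIAPP1 and XIAPP3 reached at most 0.146 and 0.0266 FPKM, and XIAPP2 was listed at 0 in all 12 libraries. BIRC6-AS1, antisense to BIRC6 over 49 exon bases, was listed at 0 as well.

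The genes whose pattern over the 12 libraries was nearest to each member were found by the root mean square difference of centred log2(FPKM + 1). DIABLO was nearest to TIMM44 (0.104), a subunit of the mitochondrial import motor, and to AC004148.1 (0.108). HTRA2 was nearest to MRPS33 (0.134), a mitochondrial ribosome protein, and to SELENBP1 (0.144). XIAP was nearest to AL591684.2 (0.302) and SERPINB9 (0.310), an inhibitor of granzyme B, at a larger distance. BIRC2 was nearest to ZNF100 (0.207) and SAMD8 (0.210), and BIRC6 to MXI1 (0.207), a partner of MAX, and RABGEF1 (0.257).

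Around the 6 genes, 6 lists of 57 genes in all were examined, of which 42 were tested. The other proteins of the intermembrane space and APAF1, the scaffold of caspase activation, had 2 of 4 genes lower with VCR in each kind of cell, beside 28.3% of all genes tested in NC cells and 19.3% in PTPN21 cells. These were CYCS, which encodes the cytochrome c that APAF1 binds, and ENDOG, a mitochondrial nuclease. CYCS changed by -0.47 in NC cells (limma adjusted p = 0.00895) and -0.78 in PTPN21 cells (adjusted p = 0.000544). ENDOG changed by -0.95 (adjusted p = 0.00696) and -1.15 (adjusted p = 0.00288). AIFM1 and APAF1 did not pass in either. In NC cells 0 of the 4 passed with median ratio scaling or with GC content and length trends removed, while in PTPN21 cells CYCS passed in all 24 alternative settings and ENDOG in 22, losing its call with trends removed and without PTPN21+DMSO replicates 1 and 2.

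The mitochondrial proteases and HTRA paralogs had 5 of 8 tested genes lower in NC cells with VCR and 4 of 8 in PTPN21 cells, and none higher. Of all genes tested, 28.3% and 19.3% passed as lower. The HTRA paralogs reached at most 0.141 FPKM and were not among the 8 tested. The median log2 fold changes of the list were -0.52 and -0.40, beside -0.36 and -0.17 for all genes. OMA1, a stress-activated protease of the inner membrane, changed by -1.83 in NC cells (limma adjusted p = 6.3e-05) and -0.77 in PTPN21 cells (adjusted p = 0.0142), and AFG3L2 by -0.94 and -0.97. OMA1 was higher in PTPN21+VCR than in NC+VCR (1.18, adjusted p = 0.0158). With median ratio scaling 2 of 8 were lower in each kind of cell, AFG3L2 and OMA1 in NC cells and AFG3L2 and LONP1 in PTPN21 cells. AFG3L2 passed in all 24 settings in both, as did OMA1 in NC cells. OMA1 passed in 19 of 24 in PTPN21 cells and in 19 of 24 between the VCR groups. Between the VCR groups its call was lost with only the groups compared and without PTPN21+DMSO replicates 1 and 2 together. It was also lost there without NC+VCR replicate 1 or PTPN21+VCR replicate 2 or 3.

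The TNF receptor and cIAP signaling complex had 1 of 15 tested genes higher and 6 lower with VCR in NC cells, and 0 higher and 3 lower in PTPN21 cells. Of all genes tested, 7.91% passed as higher and 28.3% as lower in NC cells, and 9.22% and 19.3% in PTPN21 cells, so the shares of the list in PTPN21 cells and its share of higher genes in NC cells were near or under the background. TNFRSF1A, the TNF receptor, was higher in NC cells (0.92, limma adjusted p = 0.00384). The study picked it from these libraries as lower with PTPN21 overexpression under VCR, another comparison, so it is not independent evidence. In PTPN21+VCR against NC+VCR it was -0.77 here and did not pass (limma adjusted p = 0.0698). TAB2, an adaptor of the kinase TAK1, was lower (-1.35, adjusted p = 0.00399). SHARPIN, a part of the linear ubiquitin ligase, was lower in NC cells (-0.94, adjusted p = 0.0102) and in PTPN21 cells (-1.13, adjusted p = 0.00459). With median ratio scaling the counts were 2 higher and 1 lower in NC cells and 2 higher and 2 lower in PTPN21 cells, so the balance of directions depended on the scaling. TNFRSF1A and TAB2 passed in NC cells in all 24 settings. SHARPIN lost its call in NC cells with median ratio scaling, quantile normalization, GC content and length trends removed and only the groups compared, and in PTPN21 cells with trends removed and without PTPN21+DMSO replicates 1 and 2.

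Of 8 tested NF-kB target genes, 1 was higher and 0 lower with VCR in NC cells, and 2 were higher and 3 lower in PTPN21 cells, beside the same shares of all genes. IER3, an early response gene, was higher in both (0.79, limma adjusted p = 0.00946, and 1.29, adjusted p = 0.000637). NFKBIE and ICAM1 were lower in PTPN21 cells, at -1.57 (adjusted p = 0.00702) and -1.02 (adjusted p = 0.00883). IER3 passed in all 24 settings in both kinds of cell. With GC content and length trends removed, 3 of the 8 were higher in NC cells and NFKBIE was the 1 lower gene in PTPN21 cells, where ICAM1 lost its call. With quantile normalization 2 were higher in NC cells, and without PTPN21+DMSO replicates 1 and 2 neither NFKBIE nor ICAM1 passed. BIRC3, itself a target of this pathway, was too low to be tested beside them.

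Of the 8 regulators of the inhibitors and antagonists, 6 were tested and HAX1, a partner of HTRA2 and PARL in mitochondria, was the 1 that passed. HAX1 was lower with VCR in PTPN21 cells (-0.45, limma adjusted p = 0.0224) and higher in PTPN21+DMSO than in NC+DMSO (0.48, adjusted p = 0.0482). The first of these calls held in 15 of 24 settings and was lost with median ratio scaling, quantile normalization, no intensity trend, GC content and length trends removed, without PTPN21+DMSO replicates 1 and 2 together and without PTPN21+DMSO replicate 2 or 3 or PTPN21+VCR replicate 1 or 2, and the second held in 4 of 24. In each of these comparisons HAX1 was 1 of 6 genes. Of all genes tested, 19.3% passed as lower in the first and 2.65% as higher in the second. With GC content and length trends removed, 1 other gene of the list passed with VCR, as higher, in both kinds of cell. Among the other BIRC genes, BIRC5 (survivin), which acts in cell division, was tested and did not pass. Its mean was 17.3 to 20.4 FPKM in the 4 groups. NAIP reached at most 0.437 FPKM and BIRC7 at most 0.118 FPKM. In the interaction, 0 of the 42 list genes passed.

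**Figure D5:**
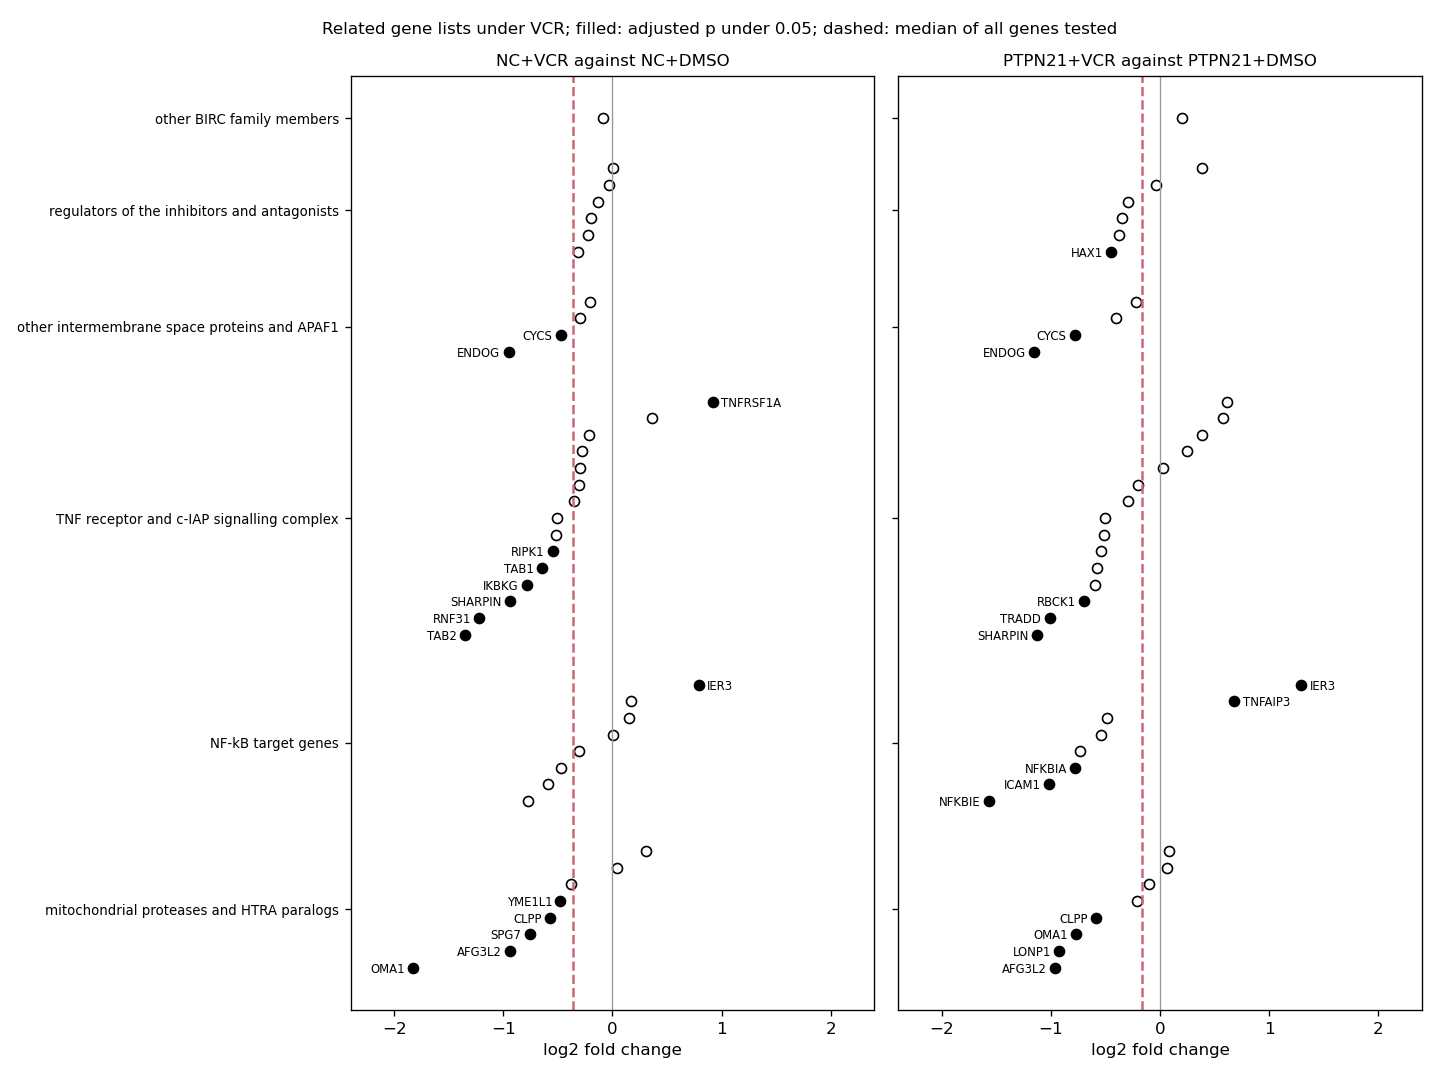
log2 fold change (x axis) with VCR in NC cells (left) and PTPN21 cells (right) of each tested gene of the 6 lists (rows), filled and named where the adjusted p was under 0.05 in limma, with a dashed line at the median of all genes tested. TNFRSF1A is the rightmost filled point on the left, at 0.92, OMA1 the leftmost, at -1.83, and IER3 at 1.29 and NFKBIE at -1.57 bound the filled points on the right.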

How the data were processed

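The authors deposited one table of FPKM for 60671 genes; an external company processed the reads. The submitters' processing notes name fastp and Bowtie2 and the mouse build mm10, while the gene identifiers are human; the counting program, annotation and strand are not given in the sources used here. Values were taken as log2(FPKM + 1) for the 11591 genes with a mean of at least 1. The 4 group means were fitted in limma 3.58.1 (R 4.3.3) with its intensity trend and Benjamini-Hochberg adjustment over all genes, in 5 comparisons; it was tested on simulated data. The 6 genes and the 6 lists were chosen with earlier results of these data known; 1 further list is not reported here. The genes named are the 6 members, PTPN21, at most 3 passing genes of each list by adjusted p, the 2 nearest genes of each tested member, and overlapping genes or pseudogenes. Outside this rule, genes of the marker lists are named for the check of the cells, APAF1, AIFM1, BIRC5, NAIP and BIRC7 as list genes that did not pass or were not tested, LONP1 for its call under another scaling, and GAPDH and the red cell genes, which were chosen after their values were seen. Settings tried beside these left out each library in turn, added a replicate block, fitted only the groups compared, dropped the trend, made the moderation robust, used 3 other scalings, a minimum mean of 5 or none, or a pseudocount of 0.1. Leaving out PTPN21+DMSO replicates 1 and 2 together, and removing GC content and length trends (99.3% of genes had values), were chosen after seeing the data. Same-numbered replicates did not deviate together (r -0.145 to 0.0583 over 18 pairs). Replicates correlated at 0.939 to 0.976 across genes. No protein sequences were used here. Figures were drawn with matplotlib 3.10.9 in Python 3.11.15.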

Additional observations from a re-analysis of the deposited data

How the results depend on the processing

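Of 290 fold changes of single genes under the other settings 272 stayed on the same side of the threshold with the same sign, as did 284 of 300 values with one library left out. The 290 include BIRC3 with no filter in each comparison, although it was not tested in the main fit and had no call to keep. The number of the 6 genes that passed for VCR in NC cells was 1 and became 0 with median ratio scaling, quantile normalization or GC content and length trends removed, and 2 with TPM scaling; it was 1 to 2 with one library left out, 2 without NC+DMSO replicate 3. For VCR in PTPN21 cells 3 became 4 with quantile normalization and 2 with median ratio scaling. It was also 2 at a mean of at least 5 FPKM, which XIAP did not reach, and 2 to 3 with one library left out. Without PTPN21+DMSO replicates 1 and 2 together, which leaves 1 library in that group, the XIAP change was 0.32 instead of 1.23. For PTPN21+DMSO against NC+DMSO 0 became 1 with median ratio scaling and without PTPN21+DMSO replicate 3 (0 to 1 with one library left out). PTPN21+VCR against NC+VCR and the interaction stayed at 0 in every setting run. The causes were not tested, beyond the fewer libraries.

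Signs turned only for values that had not passed. In NC cells with VCR, BIRC6 was -0.0472 with TPM scaling and HTRA2 0.0618 with GC content and length trends removed. Without PTPN21+DMSO replicates 1 and 2, BIRC6 was -0.18 for VCR in PTPN21 cells, 0.11 for PTPN21+DMSO against NC+DMSO and -0.23 in the interaction, and BIRC2 was 0.0038 for PTPN21+DMSO against NC+DMSO. In that last comparison BIRC2 was 0.0177 with GC content and length trends removed, and DIABLO was -0.14 with TPM scaling and -0.0428 with quantile normalization. With one library left out, VCR in NC cells ranged from -0.0682 to 0.534 for BIRC2 and -0.380 to 0.264 for BIRC6, PTPN21+DMSO against NC+DMSO from -0.0142 to 0.0393 for DIABLO, and PTPN21+VCR against NC+VCR from -0.163 to 0.449 for BIRC2, -0.293 to 0.0879 for BIRC6 and -0.0767 to 0.132 for XIAP.

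Same-numbered replicates share only a number. With the replicate block the counts of passing members stayed at 1, 3, 0, 0 and 0, and DIABLO in NC cells kept its call (limma adjusted p = 0.0256). Over all genes the counts past the threshold moved more. For VCR in NC cells 4192 became 2674 with only the groups compared, and for VCR in PTPN21 cells 3308 became 887 without PTPN21+DMSO replicates 1 and 2. PTPN21+DMSO against NC+DMSO had 735, and 242 with the replicate block, 177 with no filter, 321 with no trend, 40 with only the groups compared, 11 without PTPN21+DMSO replicates 1 and 2, 450 with GC content and length trends removed and 67 to 1345 with one library left out. PTPN21+VCR against NC+VCR had 211, and 74 with the block, 118 with no filter, 344 at a mean of at least 5, 72 with no trend, 117 with only the groups compared, 72 without those 2 libraries and 43 to 354 with one library left out. The interaction had 15, and 7 to 43 over the settings. The share of passing genes that were higher was 21.9% for VCR in NC cells and 55.8% with median ratio scaling, 32.3% and 52.2% in PTPN21 cells, and 41.8% and 73.6% for PTPN21+DMSO against NC+DMSO. FPKM gives no read counts, so the depth limit of the low values of BIRC3 and XIAP is unknown.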
